A study of Saccharomyces cerevisiae with 64 samples.

Results

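The 31 genes described here encode enzymes that make lysine (7 genes), histidine (6), tryptophan and the other aromatic amino acids (8), threonine (5) and serine (4), together with GCN4 (YEL009C), which encodes the transcription factor of the general amino acid control. They were chosen by name and pathway, and all 31 of them had a value in every group of a table of 6660 genes. Polyadenylated RNA of Saccharomyces cerevisiae S288c cells under sporulation conditions was sequenced in 64 samples, which formed 32 groups of 2 biological replicates. A group was a genotype, the kfc1 mutant or wild type, in an arm of the experiment at a time point. In the arm with IME1 and RIM4 both overexpressed, each genotype was sampled at 0, 12, 24 and 48 h. In the arm with IME1 alone overexpressed and in the arm without overexpression, each genotype was sampled at 0, 2, 4, 6, 8 and 12 h. The overexpressed genes are marked Pzev in the labels, and whether the strains are single clones is not given in the sources used here. IME1 encodes the activator of the meiotic programme and RIM4 an RNA-binding protein of meiosis. In the arms with IME1 and without overexpression the 24 wild-type samples were taken over from another series, as their titles state, so there genotype and series of origin cannot be told apart. In the arm with IME1 and RIM4 both genotypes came from the same series.

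Each value is the authors' log2 ratio of a group, replicates already combined, to wild type without overexpression at 0 h, which is 0 by construction. The table gives no replicate values and no counts, so no error and no test could be given, and depth is unknown. A gene was called higher or lower where its log2 difference, averaged over the times compared, was at least 1 in size (2-fold) and never switched sign between them. A range given in parentheses spans the times of a comparison and is no replicate error. VIR1 (YGL036W) was taken from the literature as the gene lost in kfc1. It stood between -9.41 and -4.70 after 0 h in kfc1 and between 0.33 and 2.07 in wild type. In kfc1 without overexpression it stood at -5.73 at 0 h. Its later values there were -0.00 to 1.03 as deposited and -5.74 to -4.70 after the addition. IME1 stood between 3.05 and 3.83 in kfc1 and between 2.71 and 4.02 in wild type after 0 h in both arms that overexpress it. At 0 h it stood at 0.59 in kfc1 and already at 1.94 in wild type in the arm with IME1, and at 1.22 in kfc1 and 0.14 in wild type in the arm with IME1 and RIM4.

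As background, yeast makes these amino acids from intermediates of central metabolism, through branches whose entry enzymes are the main points of feedback control. Starvation for almost any amino acid raises the translation of GCN4 messenger RNA through short upstream reading frames, so Gcn4 protein can rise while its transcript does not, and the protein activates biosynthetic genes of many pathways at promoter sites with the core TGACTC. Lysine genes have an additional activator, Lys14, which responds to a pathway intermediate and binds sites with TCC and GGA separated by 3 bases. Yeast in sporulation conditions is starved for nitrogen and depends largely on amino acids recycled from its own proteins.

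The Gcn4 core TGACTC, read on both strands of the 500 bases before the start codon in the RefSeq annotation of the R64 assembly, was in 20 of the 31 promoters (64.5%), against 759 of 6000 nuclear protein-coding genes (12.7%). It was in 5 of 6 histidine, 4 of 5 threonine, 3 of 4 serine, 5 of 8 aromatic and 3 of 7 lysine promoters. The longer TGACTCA, which contains it, was in 13 members (41.9%, against 4.00% of all promoters). TCC, 3 of any base and GGA, a motif that reads the same on both strands, was in 4 of 7 lysine promoters and in 6 of all 31 (19.4%, against 5.90% of all). GATAAG, the core of GATA factor sites, was in 8 (25.8%, against 22.8%). LYS20 and LYS4 had neither TGACTC nor the lysine motif. A match is a run of letters and not a measured binding site. The stretches below are shown because their genes carry the values that follow. They run 5′ to 3′ along the coding strand, with the motif in capitals (GAGTCA is TGACTC read on the other strand). HIS4 is on chrIII:68515-68544, HIS1 on chrV:265951-265980, HOM3 on chrV:258224-258253, TRP4 on chrIV:1184570-1184599 and LYS2 on chrII:474103-474132. The lysine motif of LYS9 is on chrXIV:715595-715623 and chrXIV:715533-715561, that of LYS1 on chrIX:420914-420942, that of LYS12 on chrIX:187796-187824 and that of LYS21 on chrIV:227053-227081. The genes HIS4, HIS1, HOM3, LYS2, LYS9, LYS1 and LYS12 are on the minus strand, TRP4 and LYS21 on the plus strand.
HIS4 Gcn4 core: acccatgcacagTGACTCacgtttttttat
HIS1 Gcn4 core: aagcttccaagtGAGTCAcctctaccgttg
HOM3 Gcn4 core: ttttcaggcccaTGACTCaccttttctttc
TRP4 Gcn4 core: acctacgcagatTGACTCtctaaaaaatga
LYS2 Gcn4 core: gtttttcgcgtgTGACTCaatgtcgaaata
LYS9 lysine motif, outer: gaatcgaaatTCCGTTGGAaaaattcgct
LYS9 lysine motif, inner: attgagaattTCCAATGGAattatcagca
LYS1 lysine motif: atttttttttTCCAGCGGAatttggaatt
LYS12 lysine motif: ttcactttttTCCCGTGGAaaaatattct
LYS21 lysine motif: gagttgaaatTCCGCTGGAaatcgtcacc
HIS4 had 3 copies of the Gcn4 core, 2 of them further from the start codon than the one shown, and LYS9 was the only lysine promoter with 2 copies of the lysine motif.

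Across all 32 groups the members spanned a wide part of the scale. The range of a member's ratio, highest minus lowest group, had a median of 2.80 over the 31 members (1.42 to 4.88), against 1.84 over the 6479 genes with a value in every group. HIS4 (YCL030C), which encodes an enzyme for several steps of histidine synthesis, had the widest range, with its low of -1.99 in wild type with IME1 and RIM4 at 12 h and its high of 2.89 in wild type with IME1 at 2 h. GCN4 and HOM6, the homoserine dehydrogenase gene, had the narrowest. GCN4 lay between -0.49 and 0.93 in every group, while the ranges of the 20 enzyme genes with a Gcn4 core ran from 1.47 for SER1, the phosphoserine aminotransferase gene, to 4.88 for HIS4.

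**Figure D1:**
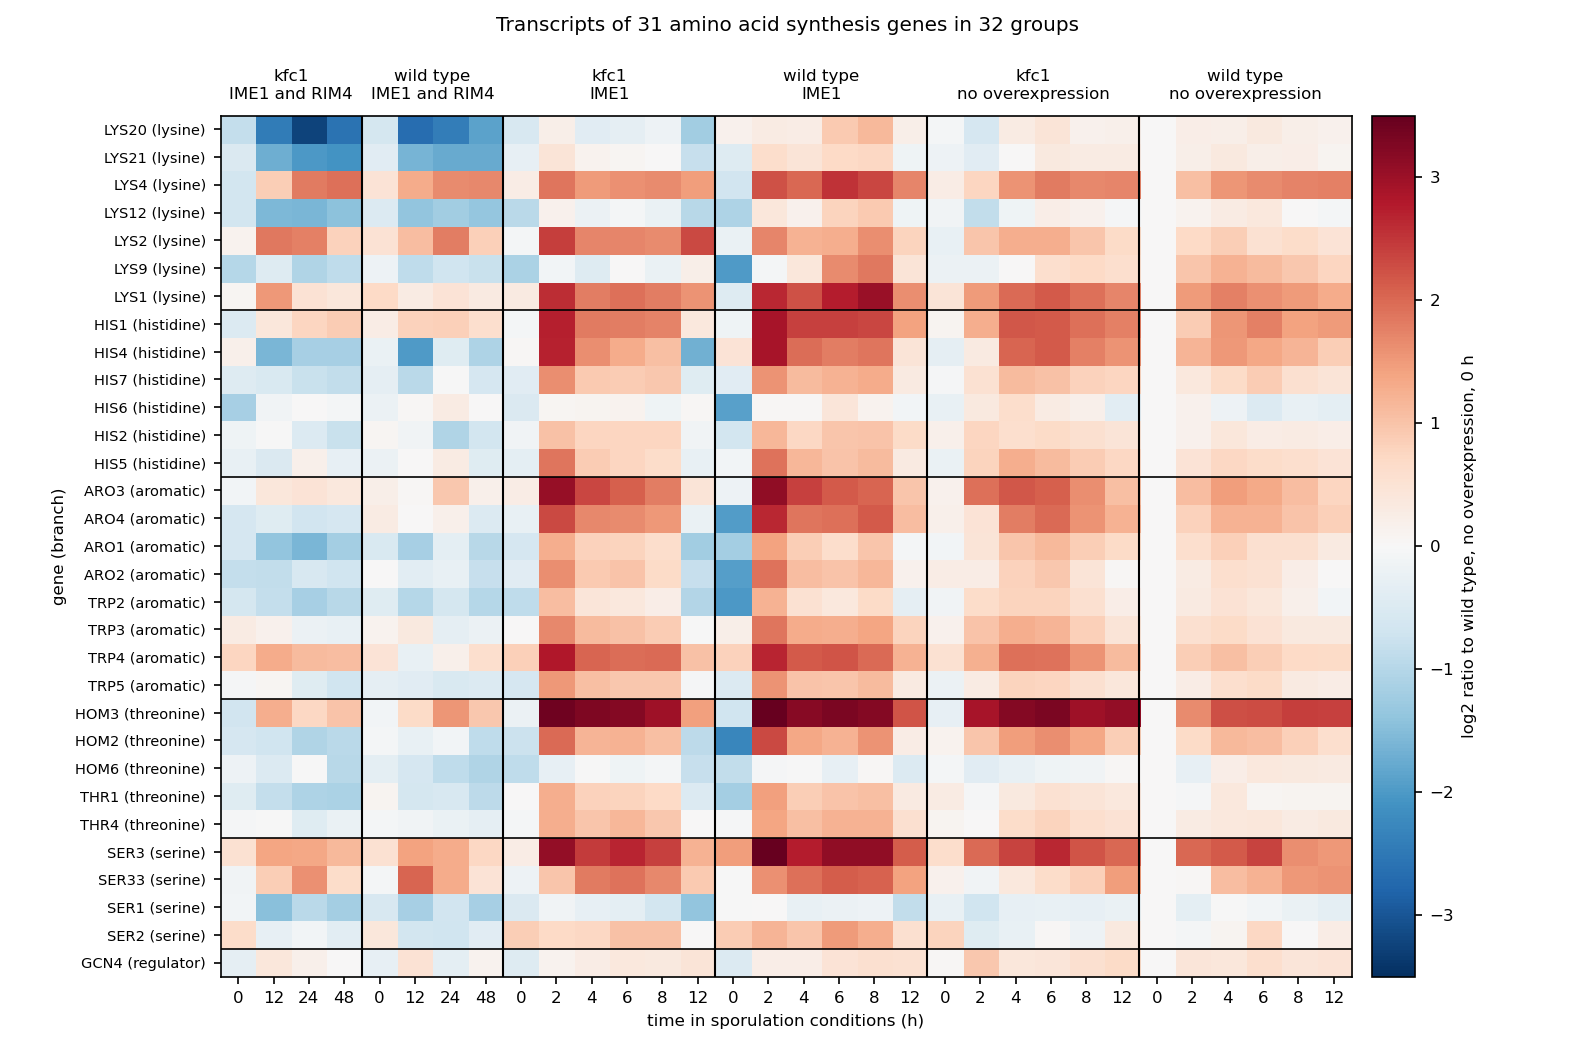
Log2 ratio to wild type without overexpression at 0 h (colour) of the 31 members (rows, by branch) in the 32 groups (columns, with time in h), kfc1 left of wild type in each arm. Most rows are red at 2 h with IME1 in both genotypes, and LYS20 and LYS21 are blue after 0 h with IME1 and RIM4.

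Without overexpression, the change over time asked what starvation did to these transcripts. Of the 31 members 12 were higher over 2 to 12 h than at 0 h in kfc1 and 10 in wild type, and none was lower. By the same rule 6.87% of all genes were higher in kfc1 and 2.37% in wild type, and 4.11% and 1.29% were lower. The members' median change was 0.75 in kfc1 and 0.57 in wild type, against 0.00 and -0.01 over all genes. Each branch except GCN4 itself contributed in both genotypes. With a Gcn4 core in the promoter, 9 of 20 enzyme genes were higher in kfc1 and 6 of 20 in wild type; without one, 3 of 10 and 4 of 10 were.

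HOM3 (YER052C), the gene for aspartate kinase, which opens the path to threonine and methionine, had the highest change in both genotypes. Its ratios were -0.29, 2.88, 3.20, 3.30, 2.98 and 3.07 in kfc1 and 0.00, 1.65, 2.26, 2.28, 2.42 and 2.40 in wild type at 0, 2, 4, 6, 8 and 12 h. The mean change was 3.37 (3.16 to 3.59) in kfc1 and 2.20 (1.65 to 2.42) in wild type. It was already near its plateau at 2 h in kfc1, and every kfc1 value after 0 h lay above every wild-type value.

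HIS1 (YER055C), the ATP phosphoribosyltransferase gene that opens the histidine path, stood at 0.10, 1.27, 2.17, 2.16, 1.94 and 1.75 in kfc1 and at 0.00, 0.88, 1.55, 1.75, 1.42 and 1.49 in wild type. HIS4 stood at -0.31, 0.31, 2.04, 2.14, 1.76 and 1.58 in kfc1 and at 0.00, 1.20, 1.51, 1.35, 1.18 and 0.87 in wild type. Their mean changes were 1.76 and 1.87 in kfc1, against 1.42 and 1.22 in wild type. HIS4 was thus lower in kfc1 at 2 h and higher there at 4 to 12 h. HIS5, an aminotransferase gene, was called in kfc1 (1.19) and averaged 0.58 in wild type. HIS7, HIS6 and HIS2 were called in neither.

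Of the paired entry enzymes of aromatic synthesis, ARO3 changed by 1.62 (0.90 to 2.03) in kfc1 and 1.14 (0.74 to 1.46) in wild type, and ARO4 by 1.23 (0.31 to 1.80) and 1.02 (0.82 to 1.23). ARO3 encodes the phenylalanine-inhibited and ARO4 the tyrosine-inhibited DAHP synthase. TRP4, for anthranilate phosphoribosyltransferase, was called in kfc1 (1.03) and averaged 0.83 in wild type, so the calls fell on either side of the threshold with nearly the same value. TRP2, the anthranilate synthase gene, had its highest ratio at 4 h, 0.79 in kfc1 and 0.51 in wild type, and was called in neither.

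In the lysine branch LYS1 and LYS4 were higher in both genotypes. LYS1 (YIR034C), for the last step, changed by 1.39 (1.03 to 1.70) in kfc1 and 1.54 (1.31 to 1.77) in wild type, and LYS4, the homoaconitase gene, by 1.25 (0.50 to 1.56) and 1.55 (1.06 to 1.77). LYS2, for the aminoadipate reductase, was called in kfc1 (1.28) and LYS9 (YNR050C), for a saccharopine dehydrogenase, in wild type (1.00). The homocitrate synthase genes LYS20 (YDL182W) and LYS21 (YDL131W), which open the path, lay between -0.58 and 0.44 in kfc1 and between 0.00 and 0.34 in wild type. These 2 coding sequences are 88.2% identical and share 37.8% of their 50-base windows exactly, so reads could have been split between them and their separate values are uncertain.

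Serine synthesis starts with closely related phosphoglycerate dehydrogenases, and their genes SER3 and SER33 differed. SER3 stood at 0.61, 1.98, 2.37, 2.64, 2.21 and 2.02 in kfc1 and at 0.00, 2.00, 2.14, 2.36, 1.62 and 1.52 in wild type. SER33 stood at 0.15, -0.12, 0.36, 0.63, 0.83 and 1.47 in kfc1 and at 0.00, 0.04, 1.08, 1.23, 1.51 and 1.58 in wild type. SER3 was high at 2 h, whereas SER33 had its highest value at 12 h in both genotypes, with lower values in kfc1 than in wild type from 2 to 12 h. The coding sequences are 82.6% identical but share 0.808% of their 50-base windows. SER3 also overlaps 77 bases of SRG1, a non-coding RNA on the same strand that represses it in S. cerevisiae, and how the authors' counting treated the overlap is not given in the sources used here. SER2, the phosphatase gene, averaged -0.88 in kfc1, where it started at 0.78, and 0.20 in wild type.

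**Figure D2:**
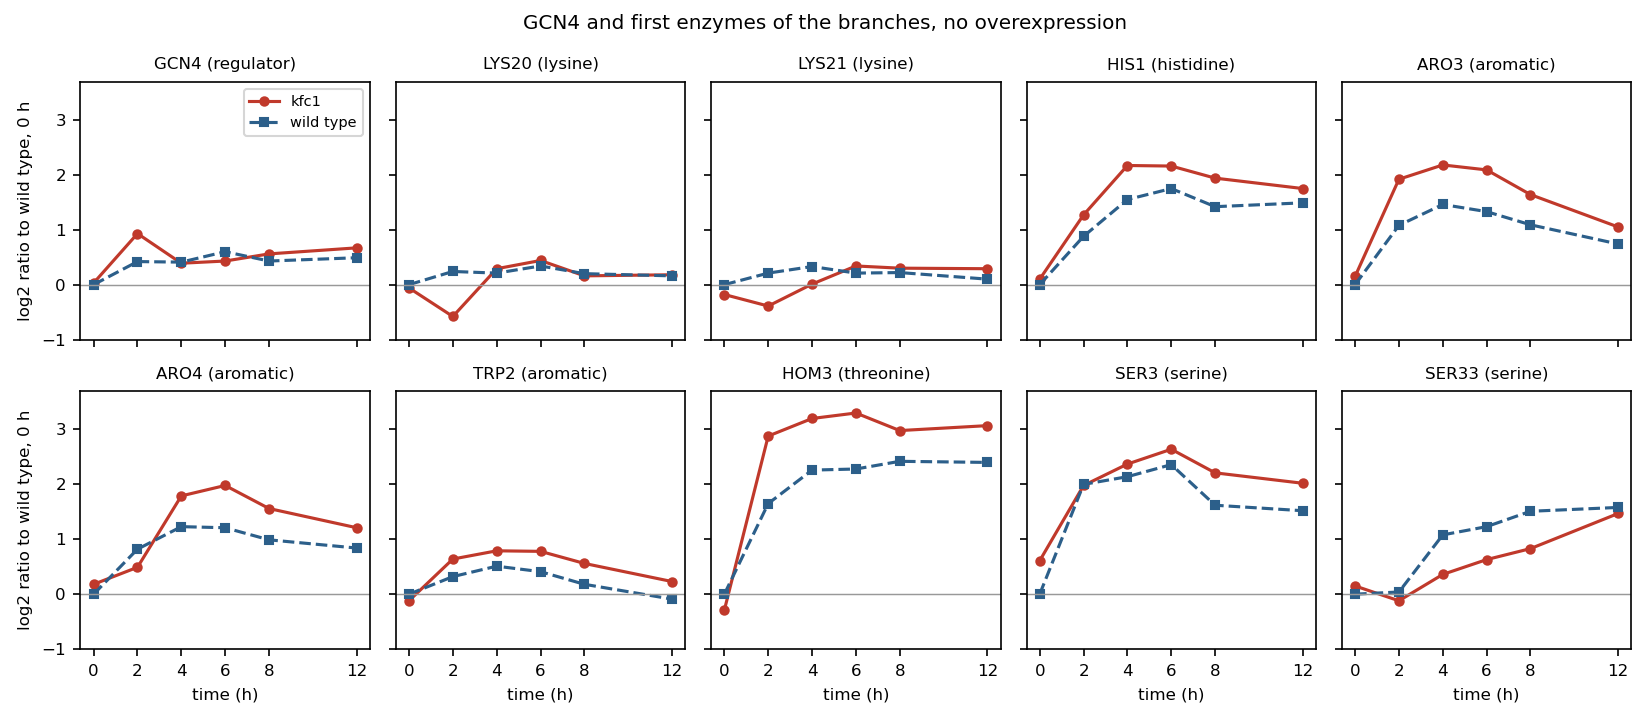
Log2 ratio to wild type at 0 h (y axis) against time in h (x axis) without overexpression, for GCN4 and the entry enzymes of the branches, with 1 combined value per point and no error bars. HOM3 reaches 3.30 in kfc1 and 2.42 in wild type, while GCN4 stays between 0.00 and 0.93.

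The transcript of GCN4 itself stood at 0.03, 0.93, 0.39, 0.43, 0.56 and 0.67 in kfc1 and at 0.00, 0.42, 0.41, 0.60, 0.43 and 0.49 in wild type, so it did not reach a 2-fold change at any time. Gcn4 protein was not measured. Among 16 other genes that control GCN4 or carry its signal, PCL5 was higher over time in wild type (1.30) and averaged 0.96 in kfc1. It is a cyclin gene that Gcn4 activates and whose product leads to Gcn4 breakdown. In kfc1 PCL5 started at 0.73, and its ratio stood above wild type at each later time. It ran from 1.37 to 1.97 in kfc1 and from 1.04 to 1.70 in wild type at 2 to 12 h. CPC2, which encodes the ribosome-bound protein Asc1, was lower in kfc1 (-1.41), and no other gene of that list was called in either genotype.

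Genotypes without overexpression were then set side by side to see whether loss of the gene altered these transcripts. No member was called at 0 h, where 0.507% of all genes were higher and 1.14% lower in kfc1, and none was called over 2 to 12 h, where 1.43% were higher and 0.370% lower. The differences leaned by branch. All 6 histidine and all 8 aromatic genes had a mean above 0 over 2 to 12 h, with medians of 0.36 in each branch. In the lysine branch 5 of 7 genes and in the serine branch 3 of 4 had a mean below 0, with medians of -0.11 and -0.22. The highest were HOM3 (0.88, 0.56 to 1.23), TRP4 (0.71, 0.38 to 1.02) and ARO3 (0.64, 0.32 to 0.83). The lowest were LYS9 (-0.66, -1.22 to -0.16), SER33 (-0.46, -0.72 to -0.11) and HOM6 (-0.36, -0.52 to -0.10). LYS9 stood at -0.20, -0.21, 0.01, 0.60, 0.71 and 0.60 in kfc1 and at 0.00, 0.98, 1.23, 1.11, 0.94 and 0.76 in wild type. The gap was -1.22 at its widest, at 4 h, and -0.16 at 12 h.

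In the lysine branch 6 of 7 genes were below 0 at 2 h, among them LYS1, which was level at -0.00. The branch median was -0.60 at 2 h and 0.02 at 12 h. For the change since 0 h, only HOM3 was higher in kfc1 than in wild type (1.17, 0.85 to 1.52) and only SER2 lower (-1.08, -1.45 to -0.70), against 3.18% of all genes higher and 0.663% lower. The SER2 value includes its higher start in kfc1. Without the 6 h groups 1 of these 2 members was called, against 3.08% of all genes higher and 0.725% lower.

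With IME1 the wild-type group at 0 h stood apart. In kfc1 at that time 1 of 31 members was at -1 or below (LYS9, -1.12) and none at 1 or above, where 4.66% of all genes were at -1 or below and 1.91% at 1 or above. In wild type 9 of 31 members were at -1 or below and SER3 was at 1.45, where 16.7% of all genes were at -1 or below and 6.02% at 1 or above, so the whole group was spread more widely. It is also the group in which IME1 itself was already at 1.94. HOM2, for aspartate semialdehyde dehydrogenase, was at -0.75 in kfc1 and -2.29 in wild type; ARO4 was at -0.25 and -1.95, and ARO2, for chorismate synthase, at -0.41 and -1.92. By the rule ARO4 (1.70), HOM2 (1.54), ARO2 (1.51), HIS6 (1.39), THR1 (1.21) and TRP2 (1.13) were higher in kfc1 at 0 h and SER3 (-1.20) lower, 6 and 1 members against a background of 10.7% higher and 1.86% lower.

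Those unlike starts enter the change over time with IME1, for which 13 members were higher in kfc1 and 24 in wild type and none was lower. By the same rule 9.69% of all genes were higher in kfc1 and 24% in wild type, and 4.99% and 12.6% were lower. Measured from 0 h without overexpression of the same genotype instead, 10 members were higher in kfc1 and 18 in wild type, against 9.20% and 9.72% of all genes. HOM3 was again high, with mean changes of 3.06 (1.64 to 3.61) in kfc1 and 3.80 (2.91 to 4.27) in wild type. In wild type ARO4 (3.89) and HOM2 (3.64) were as high, from the low starts given above. In kfc1 the next were SER3 (2.11), LYS2 (2.02) and HIS1 (1.77). Without the 12 h group the kfc1 count was 20, against 9.48% of all genes higher. At 12 h the members' median ratio was -0.04 in kfc1 and 0.46 in wild type, against 0.94 and 1.26 at 8 h.

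The comparison of the IME1 arm with the arm without overexpression asked what IME1 added at matched times. At 2 h the members were high: 19 of 31 were at least 2-fold higher with IME1 in kfc1 and 21 of 31 in wild type, with medians of 1.10 and 1.20. At that time 8.45% of all genes were higher in kfc1 and 6.34% in wild type, and 3.26% were lower in wild type, among them 1 member, LYS9 (-1.06). HIS4 at 2 h stood at 2.69 with IME1 and 0.31 without in kfc1, and at 2.89 and 1.20 in wild type. ARO3 at 2 h stood at 3.06 with IME1 and 1.92 without in kfc1, and at 3.09 and 1.08 in wild type.

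In kfc1 the median excess was near or below 0 from 4 h on. In wild type it stayed above 0 up to 8 h, below its value at 2 h, and was near 0 at 12 h. The median over members was -0.04, -0.13, -0.03 and -0.84 in kfc1 and 0.43, 0.65, 0.78 and 0.03 in wild type at 4, 6, 8 and 12 h. Over 2 to 12 h as a whole no member was called in kfc1 (4.06% of all genes higher, 2.84% lower), and TRP4 (1.21, 0.56 to 1.79) and SER3 (1.03, 0.60 to 1.69) were higher in wild type (6.08% higher, 3.97% lower). Without the 12 h groups 2 members were called in kfc1 (4.10% of all genes higher, 3.93% lower). In wild type 8 were then called (5.36% higher, 3.79% lower). Without the 2 h groups 1 was called in wild type (6.93% higher, 4.79% lower). Without the 8 h groups 1 was called there too, with shares of all genes close to the 6.08% and 3.97% over all times. At 12 h in kfc1 11 members were at least 2-fold lower with IME1 than without and LYS2 was higher, against 7.88% and 10.7% of all genes. In wild type at 12 h none was 2-fold apart (7.75% lower, 10.6% higher). The marker gene URA3 stood between 6.72 and 8.25 in kfc1 and between 6.90 and 7.50 in wild type with IME1 after 0 h. In the arm without overexpression it was near 0 or without a value. In wild type the marker LEU2 stood between 6.87 and 7.48 with IME1 after 0 h, against 1 value, 0.03, without overexpression. In kfc1 with IME1 it had no value. So IME1 cannot be told apart from URA3 in either genotype, nor from LEU2 in wild type.

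Set against each other, the genotypes' responses to IME1 differed for 2 members by the rule. The response was lower in kfc1 for HOM3 (-1.11, -1.43 to -0.80) and HIS1 (-1.04, -1.30 to -0.55), and higher for none, against 1.87% of all genes lower and 0.648% higher. Of the 31 members 28 had a mean below 0, with a median of -0.55 against 0.02 over all genes. For HOM3 the arms can be read side by side. With IME1 it stood at 3.40, 3.26, 3.22, 2.96 and 1.43 in kfc1 and at 3.56, 3.19, 3.29, 3.20 and 2.19 in wild type from 2 to 12 h. The genotype difference was thus -0.24 to 0.08 up to 8 h with IME1, and 0.56 to 1.23 without overexpression. Without the 2 h groups 6 members were called, against 1.96% of all genes lower and 0.941% higher. Without the 12 h groups 1 was, against 2.42% and 0.895%.

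The direct comparison of the genotypes with IME1 over 2 to 8 h was led by the lysine branch from 4 h on. LYS9 alone was called, lower in kfc1 by a mean of -1.15 (-2.09 to -0.02), against 0.277% of all genes lower and 0.200% higher. It stood at -0.09, -0.45, 0.02 and -0.24 in kfc1 and at -0.08, 0.41, 1.65 and 1.85 in wild type at 2, 4, 6 and 8 h. The genotypes were alike at 2 h and then parted, as the ratio went up in wild type and stayed near 0 in kfc1. Without the 6 h groups (-0.99) or the 8 h groups (-0.84) LYS9 was no longer called. Without the 2 h groups 2 members were called, against 0.338% of all genes lower.

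LYS1 showed a like gap at a higher ratio, with 2.59, 1.79, 1.93 and 1.80 in kfc1 and 2.65, 2.23, 2.74 and 3.03 in wild type. LYS20 stood at 0.21, -0.39, -0.31 and -0.18 in kfc1 and at 0.30, 0.25, 0.92 and 1.13 in wild type. LYS12, for homoisocitrate dehydrogenase, stood at 0.16, -0.20, -0.07 and -0.22 in kfc1 and at 0.39, 0.15, 0.79 and 0.91 in wild type. In each of these 3 genes wild type was at its highest of these times at 8 h, while kfc1 was at its highest at 2 h.

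LYS2 was the exception, with 2.42, 1.71, 1.70 and 1.66 in kfc1 and 1.71, 1.23, 1.26 and 1.62 in wild type, so it was higher in kfc1 at 2 to 6 h and level at 8 h. The median difference of the 7 lysine genes was -0.09, -0.43, -0.86 and -1.13 at 2, 4, 6 and 8 h. The aromatic branch had medians of -0.14, -0.10, -0.04 and -0.40, the histidine branch -0.08, -0.23, -0.32 and -0.40, the threonine branch -0.16, -0.07, -0.06 and -0.29, and all genes between 0.00 and 0.01. The serine branch had medians of -0.54, -0.18, -0.33 and -0.43, so at 2 h it lay below the lysine branch. At 6 h 2 members were at least 2-fold lower in kfc1 (0.538% of all genes) and at 8 h 4 were (0.430%), each of them a lysine gene: LYS9 and LYS20 at 6 h, and LYS9, LYS20, LYS1 and LYS12 at 8 h. Of the 4 lysine genes with the lysine motif shown above, LYS9, LYS1 and LYS12 were among these, and LYS21, with differences of -0.17, -0.35, -0.65 and -0.71, was not. Of the 3 without it LYS20 was among them, and LYS2 and LYS4, with LYS4 at -0.34, -0.53, -0.93 and -0.67, were not. LYS14, the gene of the lysine activator, stood between 0.27 and 0.46 in kfc1 and between 0.47 and 0.72 in wild type at these times. Over all members 30 of 31 had a mean below 0 in this comparison, with a median of -0.23 against 0.00 over all genes.

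**Figure D3:**
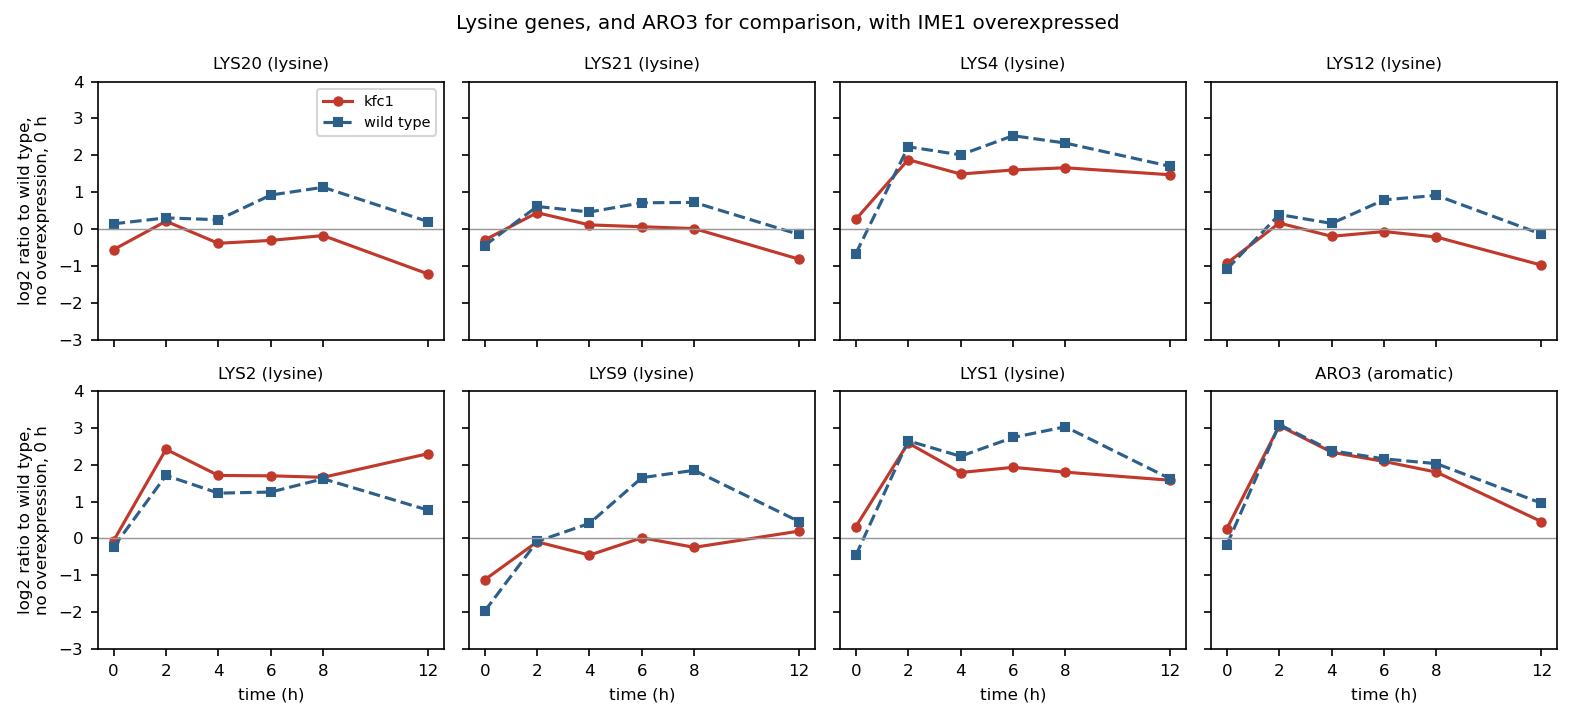
Log2 ratio to wild type without overexpression at 0 h (y axis) against time in h (x axis) with IME1 overexpressed, for the 7 lysine genes and, for comparison, ARO3, with 1 combined value per point. Wild type lies above kfc1 at 6 and 8 h for 6 of the 7 lysine genes, and the lines of ARO3 nearly coincide from 2 to 8 h.

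At 12 h with IME1 the 2-fold differences between the genotypes were spread over the lysine, histidine, aromatic and threonine branches, and no serine gene was called. The histidine, aromatic and threonine medians were -0.76, -0.75 and -0.76 and the serine median -0.53, while the lysine median was -0.27, against -1.13 at 8 h. HIS4 (-2.15), LYS20 (-1.42), ARO4 (-1.31), HOM2 (-1.19), ARO1 (-1.16) and HIS1 (-1.04) were lower in kfc1 and LYS2 (1.53) was higher, 6 and 1 members against 4.61% lower and 4.29% higher among all genes. HIS4 stood at -1.69 in kfc1 and at 0.46 in wild type at 12 h, although its ratios at 8 h had been 1.06 in kfc1 and 1.88 in wild type. ARO1, for the enzyme of the central steps of the aromatic path, stood at -1.22 in kfc1 and at -0.06 in wild type. LYS2 stood at 2.30 in kfc1 and at 0.77 in wild type, and LYS9, low in kfc1 before, at 0.20 and 0.46. In all 29 of 31 members had a difference below 0, with a median of -0.67, against -0.05 over all genes; the exceptions were LYS2 and HIS6 (0.15).

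These differences rest on 1 group of each genotype. A marker gene also separated the genotypes in this arm: LEU2 lay between 6.87 and 7.91 in wild type over all time points, with no entry in any kfc1 group. Its part in the differences at 0 h, 2 to 8 h and 12 h was not tested. Nor was its part in the genotypes' unlike responses to IME1. Without overexpression LEU2 had 1 later entry in each genotype, 0.11 in kfc1 as deposited, relative to kfc1 at 0 h, and 0.03 in wild type.

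**Figure D4:**
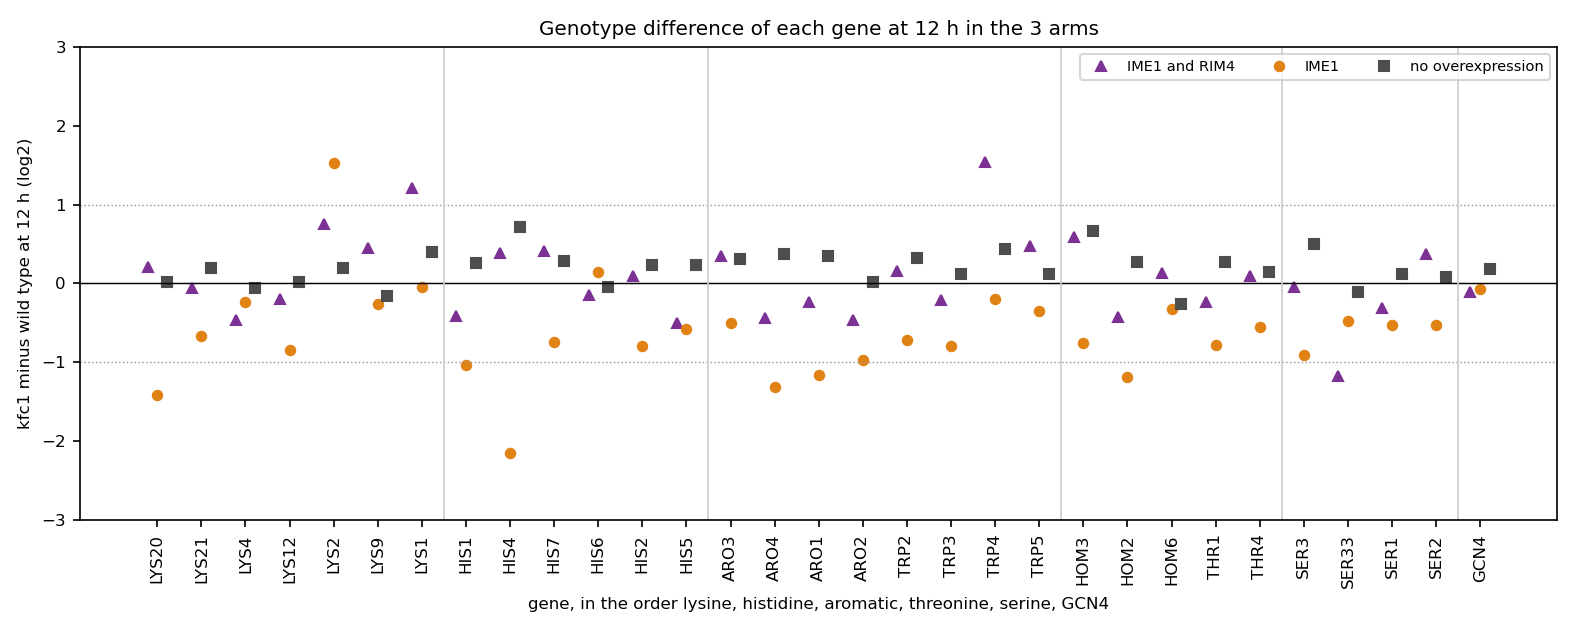
Difference of log2 ratios at 12 h, kfc1 minus wild type (y axis), of each member (x axis, by branch) in the arms with IME1 and RIM4 (triangles), with IME1 (circles) and without overexpression (squares), with dotted lines at a 2-fold difference. With IME1 29 of 31 members lie below 0, down to -2.15 for HIS4, and LYS2 lies at 1.53.

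With IME1 and RIM4 overexpressed, the homocitrate synthase genes were lower over 12 to 48 h than at 0 h in both genotypes. LYS20 stood at -0.84, -2.45, -3.25 and -2.59 in kfc1 and at -0.62, -2.66, -2.41 and -1.87 in wild type at 0, 12, 24 and 48 h, a mean change of -1.93 in kfc1, against -1.70 in wild type. LYS21 stood at -0.51, -1.70, -2.02 and -2.08 in kfc1 and at -0.39, -1.64, -1.76 and -1.77 in wild type, a mean change of -1.42 and -1.34. Both were low at each later time, whereas in the other arms, which end at 12 h, neither was below -1.22. At 12 h with IME1 alone LYS20 and LYS21 stood at -1.22 and -0.82 in kfc1 and at 0.20 and -0.15 in wild type.

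LYS4, the next gene of the path, was higher in both genotypes. It stood at -0.64, 0.85, 1.83 and 1.92 in kfc1 and at 0.48, 1.31, 1.65 and 1.67 in wild type, a change of 2.17 in kfc1, against 1.06 in wild type, with the unlike starts in it. HOM3 (1.65 in kfc1, 1.14 in wild type) and SER33 (1.16 and 1.33) were also higher in both. HIS1 (1.17), LYS2 (1.35) and HIS6 (1.10) were higher in kfc1 alone, and HIS4 (-1.49) and SER1 (-1.10), for phosphoserine aminotransferase, lower in kfc1 alone. These calls also include unlike starts. At 0 h kfc1 and wild type stood at -0.49 and 0.26 for HIS1, 0.12 and 0.50 for LYS2, and -1.16 and -0.20 for HIS6. For HIS4 the starts were 0.18 and -0.23, and for SER1 -0.10 and -0.55. After 0 h HIS1 ran from 0.41 to 0.88 in kfc1 and from 0.59 to 0.84 in wild type. HIS6 ran from -0.11 to -0.00 and from 0.02 to 0.29. HIS4 in wild type averaged -0.93 (-1.76 to -0.19).

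Thus 6 members were higher and 4 lower in kfc1, and 3 and 2 in wild type. Of all genes 20.4% were higher and 13.2% lower in kfc1, and 15.5% and 11.4% in wild type, so the shares of members were not above those of all genes. With each column centred on its mean the members' split was 3 higher and 6 lower in kfc1 (16.7% and 18.7% of all genes). In wild type it was then 1 and 5 (13.1% and 15.1%). Measured from 0 h without overexpression of the same genotype, it was 3 higher and 8 lower in kfc1 (17.3% and 13.3% of all genes) and 5 and 5 in wild type (16.2% and 12.3%), so in kfc1 the balance of the split depends on the start.

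**Figure D5:**
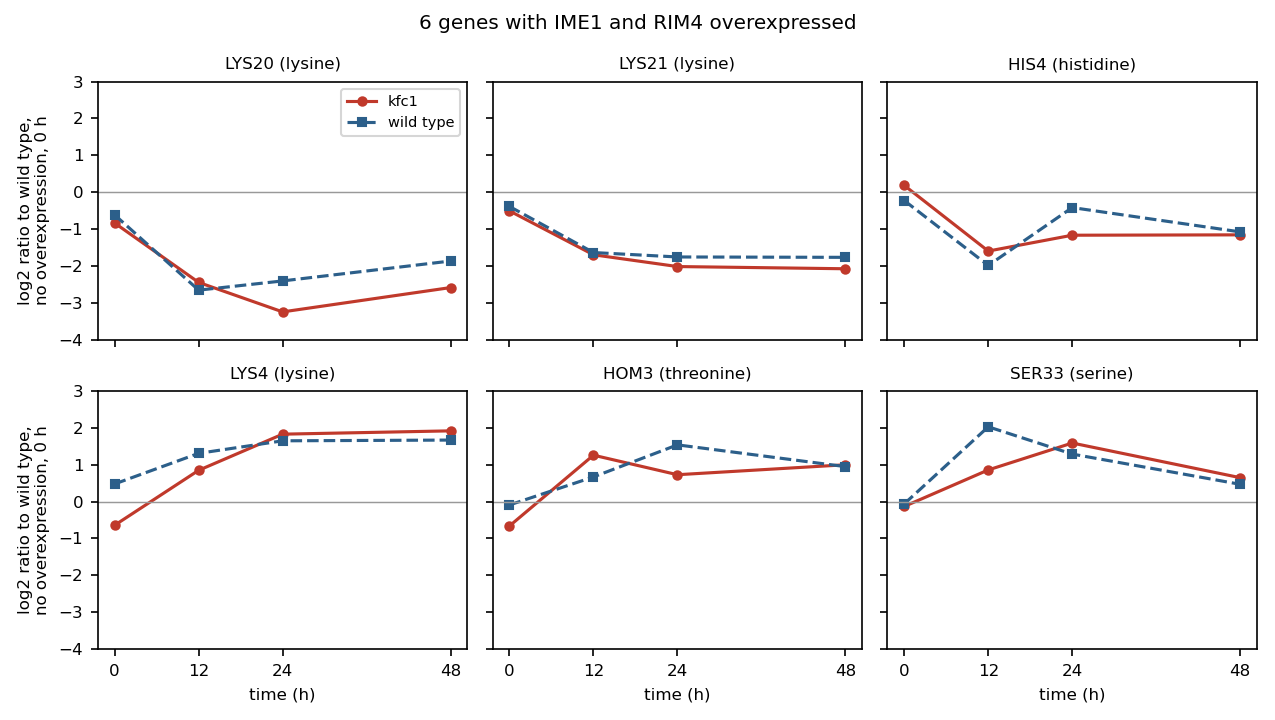
Log2 ratio to wild type without overexpression at 0 h (y axis) against time in h (x axis) with IME1 and RIM4 overexpressed, for 6 members, with 1 combined value per point. LYS20 and LYS21 lie at -1.64 or lower at 12 to 48 h in both genotypes while LYS4 reaches 1.92 in kfc1 and 1.67 in wild type.

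Between the genotypes in this arm LYS4 was lower in kfc1 at 0 h (-1.12), against 0.369% of all genes higher and 2.37% lower. Over 12 to 48 h no member was called, against 1.49% higher and 0.922% lower. TRP4 came nearest with a mean of 0.98 (0.48 to 1.54). It stood at 0.74, 1.29, 1.10 and 1.07 in kfc1 and at 0.49, -0.25, 0.18 and 0.59 in wild type, above wild type at each time point, and it passed the rule when the 24 h or the 48 h groups were left out. At 12 h alone TRP4 (1.54) and LYS1 (1.21) were at least 2-fold higher in kfc1 and SER33 (-1.17) lower, against 8.06% of all genes higher and 11.1% lower. The lower ratios of HIS4, ARO4, HOM2 and ARO1 in kfc1 with IME1 alone at 12 h had no counterpart of that size at 12 h here, where the differences were 0.39, -0.44, -0.42 and -0.23. ARO1 reached -1.24 and HOM2 -0.95 at 24 h. In this arm the marker URA3 lay between 8.94 and 9.19 in kfc1 after 0 h, against 1 value, 1.13, in wild type, and its part was not tested.

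RIM4 with IME1 was also set against IME1 alone at 12 h, the time both arms share. The RIM4 transcript itself was high in both arms at that time. It stood at 4.36 with IME1 and RIM4 and at 2.62 with IME1 alone in kfc1, and at 4.23 and 3.72 in wild type. In kfc1 LYS20 alone was lower (-1.24), against 2.06% of all genes higher and 2.72% lower. In wild type 12 members were lower and none higher, against 8.98% higher and 5.97% lower. The lowest were LYS20 (-2.86), HIS4 (-2.45) and HOM3 (-1.52), and 5 of the 7 lysine genes were among the 12. LYS20 in wild type stood at -2.66 with IME1 and RIM4 and at 0.20 with IME1, and in kfc1 at -2.45 and -1.22. HIS4 in wild type stood at -1.99 with IME1 and RIM4 and at 0.46 with IME1, and in kfc1 at -1.60 and -1.69. So the 2 kfc1 groups and the wild-type group with RIM4 had low HIS4, and wild type with IME1 alone did not. In wild type the arms come from different series, and the markers URA3 (7.50) and LEU2 (7.30) had values with IME1 and none with IME1 and RIM4, so RIM4, series and markers cannot be told apart there.

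The remaining genes of these pathways, 18 in all, moved less uniformly. Without overexpression 6.87% of all genes were higher over time in kfc1 and 2.37% in wild type, and 4.11% and 1.29% were lower. Of these 18, 2 were higher in kfc1 (HIS3 1.38 and ILV1 1.34) and 1 in wild type (HIS3 1.20), and 3 were lower in both genotypes. Those 3 break amino acids down: ARO10 (-3.90 in kfc1, -3.62 in wild type) and ARO9 (-2.50 and -2.67) act on aromatic amino acids, and CHA1 (-6.03 and -4.13) deaminates serine and threonine. HIS3, a histidine gene outside the 31 members, was lower in kfc1 at 12 h with IME1 (-1.06), with 0.42 in kfc1 and 1.48 in wild type, on the same side as HIS4 and HIS1. Also lower in kfc1 at that point were ARO8 (-1.51), an aromatic aminotransferase gene, and SHM2 (-1.01), a serine hydroxymethyltransferase gene. From the Gcn4 list PCL5 (-1.63) was lower too. ARO9 (1.44) and GCN1 (1.07), which is needed to activate Gcn2, were higher. At that point 4.61% of all genes were lower in kfc1 and 4.29% higher. With IME1 and RIM4 over time 5 of the 18 were lower in kfc1 and 6 in wild type, and 1 was higher in each. AGX1, for glyoxylate aminotransferase, was lower by most in kfc1 (-2.32, against -2.57 in wild type). Of all genes 13.2% were lower in kfc1 and 11.4% in wild type, and 20.4% and 15.5% were higher.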

How the data were processed

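The authors deposited 1 table with 1 column per group, in log2 ratios with replicates combined; 4 empty lines were left out, and 0 columns of other samples were found. No source used here states the logarithm's base, which was taken as 2. Per the submitters' processing notes BWA, DESeq2 and the build sacCer3 were used; how reads were counted and ratios shrunken is not given in the sources used here. From the values, 27 columns had the wild-type group at 0 h without overexpression as denominator. In 5 columns (kfc1, no overexpression, 2 to 12 h) it was the kfc1 group at 0 h, whose value was added. Of 160 genes blank in a wild-type column without overexpression, 31 of 102 values in those 5 columns were below 0, against 0 of 401 in the other arms.

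The members, gene lists, motifs and 19 comparisons were chosen with earlier results of these data known. Linear models had no replicates to use, so a rule of size and sign took their place. Its function was tested on simulated data. Every member could be named, with values at each time for GCN4, entry enzymes and up to 3 highest and 3 lowest members of a comparison; LYS4, LYS1, LYS2, LYS9, LYS12, HIS4 and TRP4 at each time in other comparisons were added after their values were seen, as were HIS3, PCL5, LEU2 and URA3. Names and sequences came from RefSeq (R64, the assembly of sacCer3), which held 5986 of the identifiers. Python 3.11.15, pandas 2.3.3, numpy 2.4.6 and Biopython 1.88 were used. Depth per sample is unknown.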

Additional observations from a re-analysis of the deposited data

Results flagged for a closer look

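For 5 members the genotype difference, kfc1 minus wild type, was below 0 at each of 5 time points with IME1 (2 to 12 h) and above 0 at each of the same times without overexpression. The difference between the arms was not tested, since each group is 1 combined value. The mean with IME1 minus the mean without was -1.04 for HIS1 (-0.60 with IME1, 0.44 without), -0.85 for TRP3 (-0.38 and 0.47), -0.83 for HOM2 (-0.44 and 0.39), -0.81 for ARO3 (-0.18 and 0.64) and -0.69 for HIS5 (-0.31 and 0.38). Of the 6479 genes with all values, 237 (3.66%) had opposite signs of this kind, 95 of them in the same direction as these 5 members. No member had the opposite pattern. With IME1 the value nearest 0 was -0.01 for HIS5 and HOM2 and -0.03 for ARO3.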

How the results depend on the processing

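No paired analysis was possible because the table holds 1 combined value per group and no replicate columns. Counts below are members called in either direction. With a 1.5-fold threshold, 2 members differed between the genotypes without overexpression at 0 h (0 as reported), where 2.73% of all genes were higher and 4.55% lower at that threshold, and 4 at 2 to 12 h (0; 4.84% and 2.93%). With IME1 it was 12 at 0 h (7; 21.1% and 9.67%), 5 at 2 to 8 h (1; 1.31% and 1.20%) and 17 at 12 h (7; 12.0% and 12.0%). With IME1 and RIM4 it was 7 at 0 h (1; 3.26% and 11.9%) and 1 at 12 to 48 h (0; 5.21% and 4.10%). That threshold gave 13 over time in wild type with IME1 and RIM4 (5; 24.2% and 22.3%). For IME1 against no overexpression it gave 1 in kfc1 (0; 9.89% and 6.66%) and 12 in wild type (2; 13.7% and 11.2%). For RIM4 with IME1 against IME1 it gave 5 in kfc1 (1; 7% and 7.91%) and 21 in wild type (12; 17.7% and 14.2%). It gave 6 for the change over time (2; 8.84% and 5.26%) and 11 for the response to IME1 (2; 2.89% and 4.74%). With the 5 kfc1 columns as deposited, 2 members differed between the genotypes without overexpression (0; 3.18% and 0.663%). It was 1 for IME1 in kfc1 (0; 7.09% and 5.81%) and 1 for the response (2; 0.494% and 2.73%). Starting from 0 h without overexpression gave 5 higher and 5 lower in wild type with IME1 and RIM4, 10 in all (5 as reported), and 3 higher and 8 lower in kfc1 (6 and 4 as reported). Centring on column means, which ran from -0.160 to 0.176, gave 1 for IME1 in wild type (2; 5.62% and 4.54%). Leaving out each time point in turn gave 0 to 2 for the genotypes with IME1 at 2 to 8 h. Of all genes 0.123% to 0.323% were then higher and 0.262% to 0.338% lower. It gave 0 to 1 for IME1 and RIM4 (1.86% to 2.98%, 0.645% to 2.47%). Over time in kfc1 with IME1 it gave 10 to 20, with 9.48% of all genes higher at 20 and a larger share at 10. For IME1 it gave 0 to 2 in kfc1 (3.82% to 5.35%, 2.81% to 3.93%). In wild type that was 1 to 8 (5.36% to 6.93%, 3.79% to 4.79%). It gave 1 to 2 for the change over time (2.88% to 3.61%, 0.524% to 0.787%). For the response it gave 1 to 6 (0.664% to 0.941%, 1.93% to 2.42%). No called member changed sign under any alternative, but calls fell under the threshold for 15 of 52 member values with the other start, 14 of 109 with mean centring, 4 of 16 with the columns as deposited and 27 of 374 with a time point left out; these causes were not tested. Counts stayed within 1.5 times of those reported under the median centring, without the sign rule, and with genes of the reference table only. Precision cannot be given without counts or replicates.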

Other observations

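Other biosynthetic lists gave values beside those of the members. Without overexpression, 5 of 10 arginine genes were higher in kfc1 than in wild type over 2 to 12 h (median 0.96). This compares with 0 of 31 members (median 0.25), 0 of 10 leucine and branched-chain genes (median 0.41) and 1.43% of all genes (median -0.02). With IME1 at 12 h, 4 of the 10 arginine genes were lower in kfc1 (median -0.66). Of the 10 branched-chain genes 2 were higher and none lower (median 0.47). Of all genes 4.61% were lower and 4.29% higher (median -0.05). With IME1 and RIM4 against IME1 in wild type at 12 h, 9 of the 10 arginine genes were lower (median -1.64). So were 12 of 31 members (median -0.73) and 5.97% of all genes (median -0.01). The differences between these lists were not tested.

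HIS7 and ARO4 are neighbours on chromosome II with 416 bases between them. At 0 h with IME1 their ratios were -0.40 and -0.25 in kfc1, and -0.40 and -1.95 in wild type. SER1 lay between -1.46 and 0.00 in all 32 groups, whereas SER3 was not below 0.00 in any of them.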
